A study of Mus musculus with 12 samples.

Results

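Laminins, nidogens and perlecan are secreted proteins of the basement membrane, the sheet of matrix that glomerular endothelial cells (GEC) and podocytes share in the capillary wall of the kidney filter. The 10 genes examined here were chosen by name: the laminin chains Lama3, Lama4, Lama5, Lamb1, Lamb2 and Lamc1, the nidogens Nid1 and Nid2, Hspg2, which encodes perlecan, and Col18a1, which encodes collagen XVIII. All 10 were found among the 15768 genes common to both deposited tables, 17811 genes for dim and 17521 for bright cells. The RNA came from 12 libraries, with 3 in each of 4 groups, sorted by FACS from digested glomeruli of C57BL/6 mice at 4 month of age. WT mice were wild type for Col4a5 and AS mice carried Col4a5 -/- (the Alport model), and mice of both genotypes carried the TekCre tdTomato reporter, in which Tek-driven Cre marks cells with a history of Tek expression. Each mouse gave a dim tdT and a bright tdT library, so that the groups were WT-dim, WT-bright, AS-dim and AS-bright. Cells were thus defined by reporter brightness and not by a matrix gene. The p-values measure the spread between 3 mice a group. Unless a replicate block is named, the tests take the dim and bright libraries of a mouse as independent.

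A laminin molecule is a cross of 3 chains, 1 alpha, 1 beta and 1 gamma, which assemble inside the cell before secretion. The alpha chain carries the main sites for cell receptors, and the mature glomerular basement membrane is known for laminin with the alpha5, beta2 and gamma1 chains (Lama5, Lamb2, Lamc1). Nidogens bind the gamma1 chain and collagen IV, perlecan carries heparan sulfate chains, and collagen XVIII is a heparan sulfate proteoglycan whose C-terminal fragment is endostatin. Collagen IV itself is the network that is altered in Alport syndrome, in which the alpha3, alpha4 and alpha5 chains of collagen IV are affected.

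The genes lie at separate places in the mouse genome (GRCm38, Gencode M21). Lama4 is on chromosome 10 (38965515 to 39110188, plus strand), Lama5 on chromosome 2 (180176373 to 180225859, minus strand) and Lamb1 on chromosome 12 (31265234 to 31329644, plus strand). Lamb2 is on chromosome 9 (108479736 to 108490530, plus strand) and Lamc1 on chromosome 1 (153218922 to 153332786, minus strand). Nid1 is on chromosome 13 (13437551 to 13512269, plus strand), Nid2 on chromosome 14 (19751265 to 19811787, plus strand), Hspg2 on chromosome 4 (137468769 to 137570630, plus strand) and Col18a1 on chromosome 10 (77052178 to 77166548, minus strand). Nid2 shares its locus with Rtraf, and Col18a1 with Slc19a1, each a protein-coding gene on the opposite strand. The counted strand is not given in the sources used here, so the counts of Nid2 and Col18a1 are uncertain to that extent, as are those of Nid1 and Lama3, which an annotated antisense gene overlaps.

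RefSeq promoter entries (GRCm38.p6) matched 6 of the 10 genes (Lama5, Hspg2, Lamb2, Col18a1, Lamb1 and Nid1), with 7 transcription starts, since Col18a1 has 2. In the 250 bases before the start, the GC box letters GGGCGG, on either strand, occurred in 5 of these 7 promoters and in 32.7% of all 32851 promoters. The TATA box letters TATAAA occurred in 0 of the 7 and in 12.4% of all. The GC content was 43.6% before Lamb2 and 57.6% to 72.4% before the others, against a median of 52.4% over all promoters. The promoters of Hspg2 and Col18a1 are shown because these genes, alone among the 6, were lower in AS-dim than in WT-dim GEC past the threshold. Each is printed 5′ to 3′ up to the first annotated exon base, and capitals mark every GC box on either strand, 5 in Hspg2 and 3 in Col18a1. They come from chr4:137468553-137468768 on the plus strand and chr10:77166549-77166780 on the minus strand.
Hspg2: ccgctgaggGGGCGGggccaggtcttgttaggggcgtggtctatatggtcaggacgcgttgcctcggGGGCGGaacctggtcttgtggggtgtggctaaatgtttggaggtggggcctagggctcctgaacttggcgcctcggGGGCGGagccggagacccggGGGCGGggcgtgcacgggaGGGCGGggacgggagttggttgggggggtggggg
Col18a1: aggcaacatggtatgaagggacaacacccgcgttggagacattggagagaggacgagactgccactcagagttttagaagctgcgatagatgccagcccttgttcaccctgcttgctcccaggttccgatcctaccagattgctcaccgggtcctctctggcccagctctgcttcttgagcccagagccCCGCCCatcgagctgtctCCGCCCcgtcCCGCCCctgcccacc
A match of letters is a description of the window. The counts of Col18a1 were made over the whole gene and do not tell its 2 starts apart.

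The libraries held 11440169 to 15074909 counts on genes, with 0.0286% to 0.282% of counts on spike-in RNAs. Levels are given in CPM, the counts on a gene for each M (mega) of counts in its library, after TMM scaling of all 12 libraries together. Col4a5, the mutated gene, had 67.6, 37.1 and 73.9 CPM in WT-dim and 3.60, 1.99 and 1.36 CPM in AS-dim GEC (log2 fold change -4.69, SE 0.45, edgeR quasi-likelihood adjusted p = 0.00983). In bright GEC it was low in both genotypes, with 4.92 to 9.996 CPM in WT and 3.13 to 6.79 in AS, so that the bright libraries did not separate by it (adjusted p = 0.495 by the same test). The 14 endothelial markers, all above 0 in every library, summed to 11168 to 17150 CPM in WT-bright, 16642 to 19437 in AS-bright, 745 to 1396 in WT-dim and 232 to 327 in AS-dim GEC. Of 18 leukocyte markers, the 11 in both tables summed to 4476 to 7011 CPM in WT-dim, 8987 to 11230 in AS-dim and 37.5 to 85.1 in bright GEC. Bright libraries also held other markers. The 12 mesangial and mural markers in both tables summed to 828 to 1761 CPM in WT-bright and 1182 to 2231 in AS-bright GEC. The 15 proximal tubule markers summed to 537 to 3284 CPM in WT-bright and 65.9 to 635 in AS-bright GEC. Endothelial markers thus had the highest of these sums in every bright library, as the label of glomerular endothelial cells says. In every dim library leukocyte markers summed to more than endothelial markers, by the widest gap in AS-dim. The name dim GEC is kept here only as the label of the sorted cells. Which cells gave the RNA of the 10 genes was not tested.

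All 10 genes were higher in bright than in dim GEC, in both genotypes, and Lamc1 had the highest level in every group. Bright and dim libraries of a genotype did not overlap for any of them, which was the case in that direction for 22.2% of all genes in WT and 31.9% in AS. The plot of levels by library shows this separation for each gene.

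**Figure D1:**
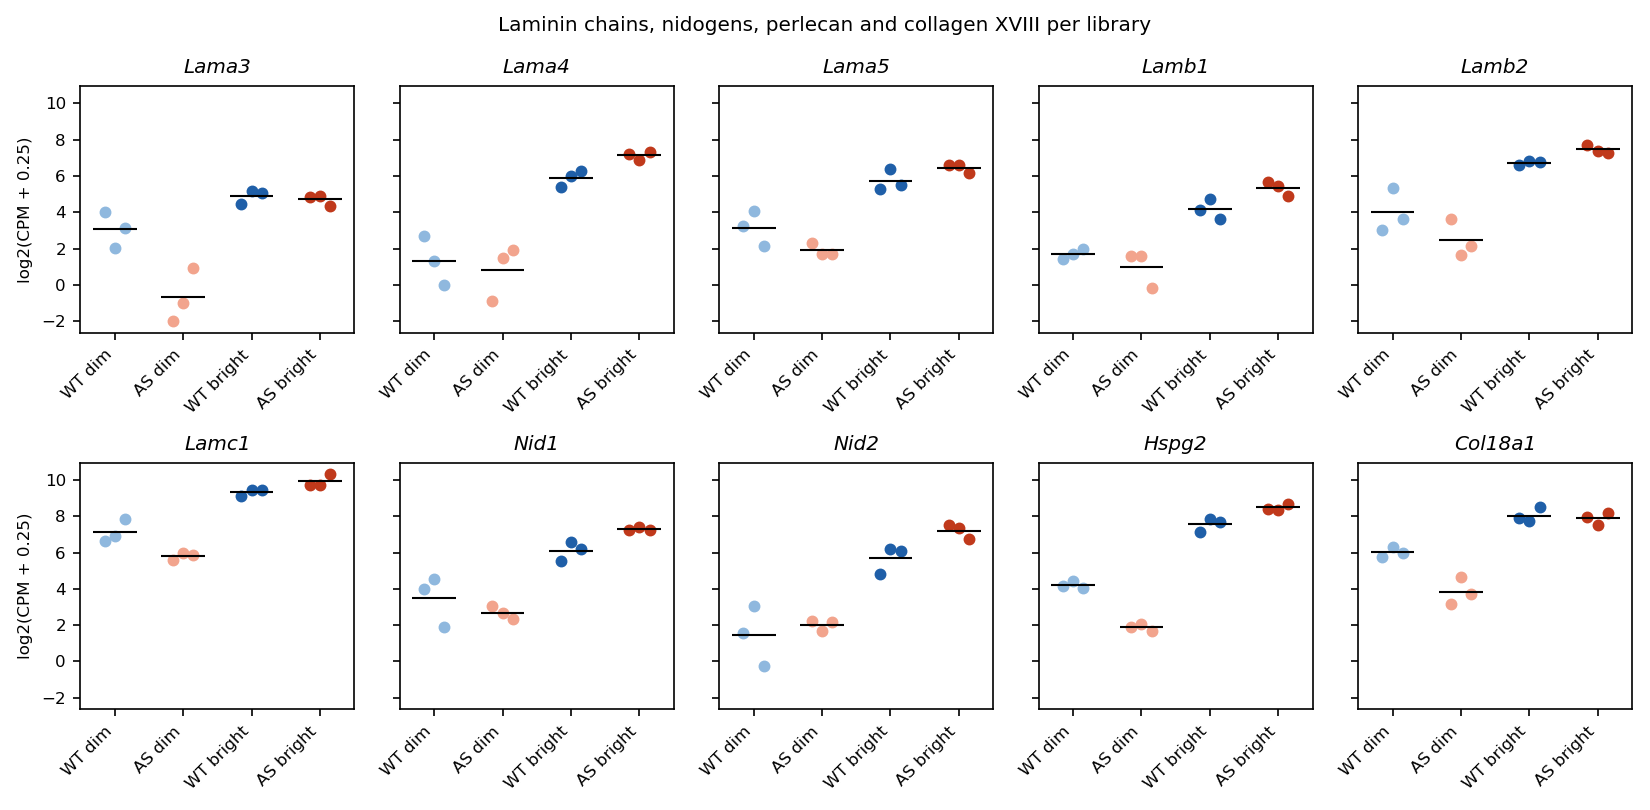
Level of each gene in the 12 libraries as log2(CPM + 0.25), with 1 point per library and a bar at the group mean, for WT dim, AS dim, WT bright and AS bright. For all 10 genes every bright library lay above every dim library of the same genotype.

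The alpha chains come first. Lama5, the alpha chain of the mature glomerular membrane, had 38.7, 83.7 and 45.7 CPM in WT-bright and 98.4, 96.8 and 70.8 CPM in AS-bright GEC. It had 9.30, 16.6 and 4.22 CPM in WT-dim and 4.81, 2.98 and 3.03 CPM in AS-dim GEC. The genotypes overlapped in both subpopulations, while bright and dim did not. Lama4, the alpha chain of vessel and mesangial basement membranes, had 41.3, 65.1 and 77.5 CPM in WT-bright and 148, 118 and 162 CPM in AS-bright GEC. Its dim levels were 6.14, 2.28 and 0.759 CPM in WT and 0.283, 2.57 and 3.51 CPM in AS. Every AS-bright library exceeded every WT-bright library for Lama4, and the dim libraries overlapped. Lama3, best known as a chain of epithelial laminin-332, had 22.02, 36.3 and 33.6 CPM in WT-bright and 28.8, 29.96 and 20.3 CPM in AS-bright GEC. In dim GEC it had 15.7, 3.89 and 8.68 CPM in WT and 0, 0.249 and 1.68 CPM in AS, from 0, 3 and 21 counts. The AS-dim libraries all lay below the WT-dim ones for Lama3, at the edge of what this depth detects.

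The beta chains differed in level. Lamb2, the beta chain of the mature glomerular membrane, had 97.5, 112 and 111 CPM in WT-bright and 209, 169 and 156 CPM in AS-bright GEC, without overlap. It spread more widely in dim GEC, with 7.81 to 40.4 CPM in WT and 2.90 to 11.9 CPM in AS. Lamb1, the beta chain of the immature membrane and of many other tissues, had 17.0, 26.2 and 12.4 CPM in WT-bright and 49.9, 43.9 and 29.2 CPM in AS-bright GEC. Its dim levels, 2.46 to 3.71 CPM in WT and 0.638 to 2.82 CPM in AS, overlapped.

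Lamc1, the gamma chain of nearly all laminins, had 551, 684 and 688 CPM in WT-bright and 842, 856 and 1300 CPM in AS-bright GEC. In dim GEC it had 98.2, 121 and 233 CPM in WT and 47.1, 63.7 and 57.7 CPM in AS. The genotypes did not overlap in either subpopulation, AS lying above WT in bright and below WT in dim GEC.

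The nidogens, which bridge laminin and collagen IV, were among the genes with the widest genotype gap in bright GEC. Nid1 had 46.5, 96.7 and 72.1 CPM in WT-bright and 148, 168 and 151 CPM in AS-bright GEC. Nid2 had 28.2, 71.9 and 68.3 CPM in WT-bright and 184, 161 and 109 CPM in AS-bright GEC. All AS-bright libraries exceeded all WT-bright libraries for both genes. In dim GEC, Nid1 had 3.54 to 22.9 CPM in WT and 4.79 to 7.99 in AS, and Nid2 had 0.590 to 8.20 CPM in WT and 2.98 to 4.38 in AS, overlapping in each case.

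Hspg2, the perlecan gene, separated all groups. It had 139, 232 and 206 CPM in WT-bright and 341, 330 and 414 CPM in AS-bright GEC. It had 17.3, 21.7 and 16.02 CPM in WT-dim and 3.53, 3.90 and 2.95 CPM in AS-dim GEC. For Hspg2 the 4 groups did not overlap, in the order AS-dim, WT-dim, WT-bright and AS-bright from lowest to highest. Col18a1 had 235, 210 and 368 CPM in WT-bright and 253, 180 and 290 CPM in AS-bright GEC, which overlapped. In dim GEC it had 54.5, 80.3 and 63.9 CPM in WT and 8.84, 24.8 and 12.8 CPM in AS, with every AS library below every WT library.

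Between genes, levels can be compared only per length, and they were taken here from the deposited RPKM, which the authors computed with gene lengths longer than those of the annotation. In WT-bright GEC, mean RPKM was 57.8 ± 5.54 (SD, n = 3) for Lamc1, 16.3 ± 5.19 for Col18a1, 13.1 for Lamb2, 6.85 for Nid1, 6.62 for Hspg2, 4.30 for Lama5, 4.18 for Nid2, 3.36 for Lama4, 1.92 for Lama3 and 1.04 for Lamb1. Of the 9 neighbouring pairs in that order, 4 had libraries that did not overlap: Lamc1 above Col18a1, Lamb2 above Nid1, Lama4 above Lama3 and Lama3 above Lamb1. In AS-bright GEC the order began with Lamc1 (87.4 ± 21.9 RPKM, SD, n = 3) and Lamb2 (21.1), ahead of Nid1 (14.5), Col18a1 (14.0) and Hspg2 (12.1), and ended with Lamb1 (2.24) and Lama3 (1.60). Lamc1 ranked highest in all 4 groups with the deposited length and also with the length of the longest coding transcript. The rank of Col18a1 in AS-bright GEC was 4 with the deposited length and 2 with the transcript length, so orders below the first place depended on the length.

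The first comparison asked how AS changed these genes in bright GEC. None of the 10 passed the threshold of adjusted p under 0.05, where 0.452% of 14396 genes did in either direction and 0.188% as higher (edgeR quasi-likelihood, adjusted by the Benjamini-Hochberg method). Unadjusted, 7 of the 10 had p under 0.05, as had 3145 of all genes tested. The estimate was positive for 8 genes and negative for Lama3 and Col18a1, with a median log2 fold change of 0.76 against -0.03 over all genes tested. For Lama4, Lamb1, Lamb2, Lamc1, Nid1, Nid2 and Hspg2 every AS library exceeded every WT library, a pattern that 13.6% of all genes showed in that direction.

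The largest estimates in bright GEC were those of Nid2 (log2 fold change 1.37, SE 0.34, adjusted p = 0.0730), Lama4 (1.15, SE 0.25, adjusted p = 0.0593), Lamb1 (1.09, SE 0.33, adjusted p = 0.109) and Nid1 (1.06, SE 0.25, adjusted p = 0.0678), by edgeR's quasi-likelihood test. Hspg2 followed with 0.85 (SE 0.22, adjusted p = 0.0811), then Lamb2 with 0.67 (SE 0.20, adjusted p = 0.108), Lama5 with 0.61 (SE 0.29, adjusted p = 0.256) and Lamc1 with 0.57 (SE 0.23, adjusted p = 0.180) by the same edgeR test. Lama3 had -0.28 (SE 0.28, adjusted p = 0.602) and Col18a1 -0.24 (SE 0.26, adjusted p = 0.632) by that edgeR test. The estimates of these 2 genes were smaller than their standard errors. DESeq2 called 6 of the 10 genes, all higher (Lama4, Lamb1, Lamb2, Nid1, Nid2 and Hspg2), and edgeR's likelihood ratio test called 4 (Lama4, Nid1, Nid2 and Hspg2), against 1117 and 827 of all genes, and so the call in bright GEC depended on the test. No marker list had a gene past the threshold here, with median log2 fold changes of 0.32 for the 14 endothelial, 0.85 for the 17 podocyte, 0.37 for 13 mesangial and mural, 0.53 for 6 leukocyte, -2.56 for the 15 proximal tubule and -2.41 for the 10 distal tubule and collecting duct markers, whose part in the estimates was not tested.

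The second comparison asked the same in dim GEC. Of the 10 genes, 4 passed and all 4 were lower in AS, where 8.62% of 14637 genes passed in either direction, 6.41% as lower and 2.21% as higher. Hspg2 fell by 2.44 on the log2 scale (SE 0.37, adjusted p = 0.0197), Col18a1 by 2.14 (SE 0.39, adjusted p = 0.0230), Lamc1 by 1.45 (SE 0.33, adjusted p = 0.0368) and Lama3 by 3.93 (SE 0.92, adjusted p = 0.0368), all adjusted within the same edgeR quasi-likelihood fit. The Lama3 value was -3.32 without AS-dim replicate 1 and -6.26 without AS-dim replicate 3, which left libraries of 0 and 3 counts in AS, so that the fitted value depends on the prior count. These 4 genes were also the ones whose WT-dim and AS-dim libraries did not overlap, as was the case in that direction for 16.2% of all genes.

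The other 6 genes had negative estimates in dim GEC that did not pass. They were -1.68 for Lamb2 (SE 0.73, adjusted p = 0.191), -1.50 for Lama5 (SE 0.58, adjusted p = 0.145), -1.17 for Nid1 (SE 0.62, adjusted p = 0.278), -0.59 for Lama4 (SE 0.87, adjusted p = 0.719), -0.59 for Lamb1 (SE 0.57, adjusted p = 0.561) and -0.02 for Nid2 (SE 0.73, adjusted p = 0.989), all by edgeR's quasi-likelihood test. The counts of these 6 genes were low in dim GEC, as were those of Hspg2 and Lama3, which passed. Dim libraries spread widely for several of the 6, but less for Lamb1 in WT-dim (2.46 to 3.71 CPM). When a library was left out, Lamb2 ranged from -2.57 (without AS-dim replicate 1) to -0.72 (without WT-dim replicate 2), Nid1 from -1.63 to -0.66 and Lama5 from -1.87 to -0.96. The median over the 10 genes was -1.48, against -0.02 over all genes tested.

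Markers of other cells moved with this comparison. Of the 14 endothelial markers, 9 were lower in AS-dim GEC and 0 higher, with a median log2 fold change of -2.24. Of 15 proximal tubule markers 8 were lower (median -4.25), and their summed level was 1738 to 7948 CPM in WT-dim and 17.6 to 485 CPM in AS-dim libraries. Of 17 podocyte markers 4 were lower and 1 higher, of 14 mesangial and mural markers 0 passed among 11 tested (median -1.08), of 10 distal tubule and collecting duct markers 6 of 8 tested were lower (median -3.08), and of 18 leukocyte markers 3 were higher. The part of these cells in the fall of Hspg2, Col18a1, Lamc1 and Lama3 was not tested, and in bulk libraries fewer cells of a type cannot be told apart from less RNA per cell. With the mean proximal tubule marker level as a covariate 0 of all genes passed, and with the mean podocyte marker level 34 of all genes and 0 of the 10 did, against 1262 of all genes without a covariate. The estimates with the proximal tubule and the podocyte covariate were -2.29 and -2.02 for Hspg2, -1.43 and -2.09 for Col18a1, -1.66 and -1.22 for Lamc1, and -2.39 and -7.81 for Lama3. Without AS-dim replicate 1, or without AS-dim replicate 3, 0 of the 10 passed, and 0 and 1 of all genes passed. Without WT-dim replicate 2 there were 2 calls among the 10 and 815 among all genes, without AS-dim replicate 2 there were 2 and 473, and without WT-dim replicate 3 there were 6 and 1823. Over 16 alternatives Hspg2 kept its call in 12, Col18a1 in 11, and Lamc1 and Lama3 in 8 each, always with a negative estimate.

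**Figure D2:**
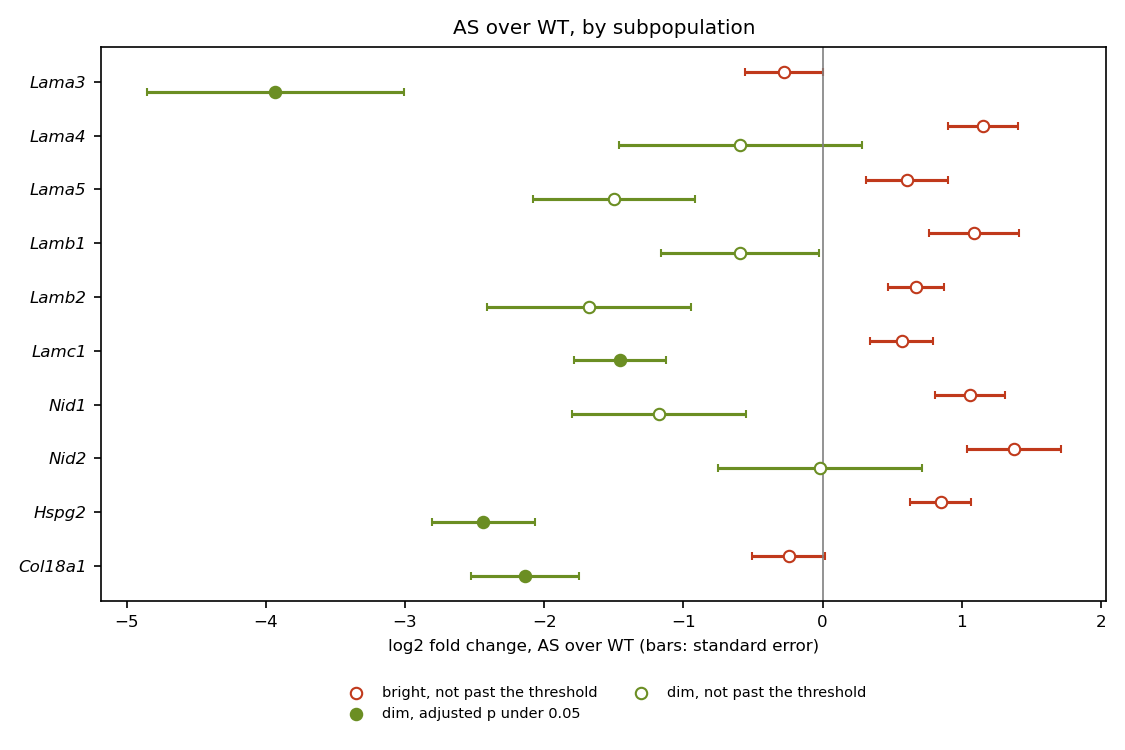
Log2 fold change of AS over WT for each gene in bright and dim GEC, with the standard error as bars and filled points for adjusted p under 0.05. In dim GEC the filled points are Lama3, Lamc1, Hspg2 and Col18a1, all below 0, and no bright point is filled.

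The difference between these effects was tested in 1 fit of all 12 libraries. The AS over WT change was more positive in bright than in dim GEC for all 10 genes and passed for 4 of them, where 3.77% of 15084 genes passed in either direction and 2.96% in the positive direction. The difference was 3.32 for Hspg2 (SE 0.35, adjusted p = 0.00222), 2.06 for Lamc1 (SE 0.42, adjusted p = 0.0164), 3.68 for Lama3 (SE 0.91, adjusted p = 0.0395) and 1.94 for Col18a1 (SE 0.48, adjusted p = 0.0423) by edgeR's quasi-likelihood test. The other 6 genes had differences of 1.41 (Nid2) to 2.39 (Lamb2) with adjusted p from 0.0759 (Nid1) to 0.374 (Nid2) in that edgeR fit. When a library was left out, Nid2 ranged from 0.19 (without WT-dim replicate 2) to 1.93, Lama4 from 0.78 (without WT-dim replicate 1) to 2.39, Lamb2 from 1.39 (without WT-dim replicate 2) to 3.25, and Lama3 from 3.04 to 6.04 (without AS-dim replicate 3). The median over the 10 genes was 2.10, against 0.13 over all genes tested. The 4 genes that passed here were those that passed in dim GEC, whose libraries both fits contain.

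Hspg2 passed this test in 21 of 22 alternatives, Lamc1 in 20, Col18a1 in 11 and Lama3 in 8. With the mean podocyte marker level as a covariate, chosen after seeing the data, 0 of the 10 and 11 of all genes passed, against 569 of all without it. The differences in that fit were 3.51 for Hspg2 (edgeR adjusted p = 0.101), 2.27 for Lamc1, 5.27 for Lama3 and 1.99 for Col18a1, and the sign turned for Lamb2 (-0.19). With the mean proximal tubule marker level, also added after seeing the data, 3 of the 10 (Hspg2, Lamc1 and Col18a1) and 538 of all genes passed. With the mouse as a replicate block, 877 of all genes passed, against 569 without it, and 4 of the 10 did, with Lama5 gained (adjusted p = 0.0292) and Lama3 lost (adjusted p = 0.0696) in edgeR's blocked fit. Without AS-dim replicate 1, without WT-bright replicate 1 and without AS-bright replicate 1, 2 or 3, 2 of the 10 genes passed, and 308, 625, 252, 424 and 312 of all genes in that order. Without WT-dim replicate 3, 6 of the 10 and 856 of all genes passed. Of the 14 endothelial markers, 11 had a difference that passed, all positive (median 2.59), and of 17 podocyte markers 7 did (median 2.15). Their part in the differences of the matrix genes was not tested.

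The remaining comparisons set bright against dim GEC of the same mice. In WT mice all 10 genes were higher in bright GEC and passed, where 25.3% of 14247 genes passed in either direction and 13.8% were higher. The highest estimate was that of Lama4 (log2 fold change 4.38, SE 0.58, adjusted p = 0.000613), then Nid2 (3.90, SE 0.69, adjusted p = 0.00329) and Hspg2 (3.43, SE 0.30, adjusted p = 6.03e-05) by edgeR's quasi-likelihood test. Between them and the smallest lay Lamb1 (2.63), Lama5 (2.51), Lamb2 (2.44), Nid1 (2.40), Lamc1 (2.13) and Col18a1 (2.08). Lama3 had the lowest estimate (1.75, SE 0.49, adjusted p = 0.0276 by edgeR's test). Without WT-dim replicate 2, Nid2 had 5.14, above Lama4 (4.22), and Lamb2 had 3.46, so the order changed with a single dim library, and without WT-dim replicate 1 Lama4 had 5.35. Lama3 lost its call in 6 of 17 alternatives, with 0.47 as its lowest estimate.

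In AS mice all 10 genes were again higher in bright GEC and passed, where 55.1% of 14052 genes passed in either direction and 28.6% were higher. Hspg2 had the highest estimate (6.69, SE 0.23, adjusted p = 3.16e-08), then Lama4 (6.10, SE 0.45, adjusted p = 1.74e-06), Lama3 (5.38, SE 0.58, adjusted p = 2.67e-05) and Nid2 (5.27, SE 0.29, adjusted p = 2.47e-07) by edgeR's quasi-likelihood test. The others were Lamb2 (4.77), Nid1 (4.60), Lama5 (4.59), Lamb1 (4.28), Lamc1 (4.14) and Col18a1 (3.96). The median over the 10 genes was 4.69 in AS and 2.48 in WT, against 0.02 and -0.04 over all genes tested. Without AS-dim replicate 3, Lama3 had 7.73 and Lama4 6.70, both above Hspg2 (6.60), and without AS-dim replicate 1 Lamb2 had 5.65 and Lama3 4.74, so the order changed with single dim libraries. Each gene kept its call in AS in all 17 alternatives.

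**Figure D3:**
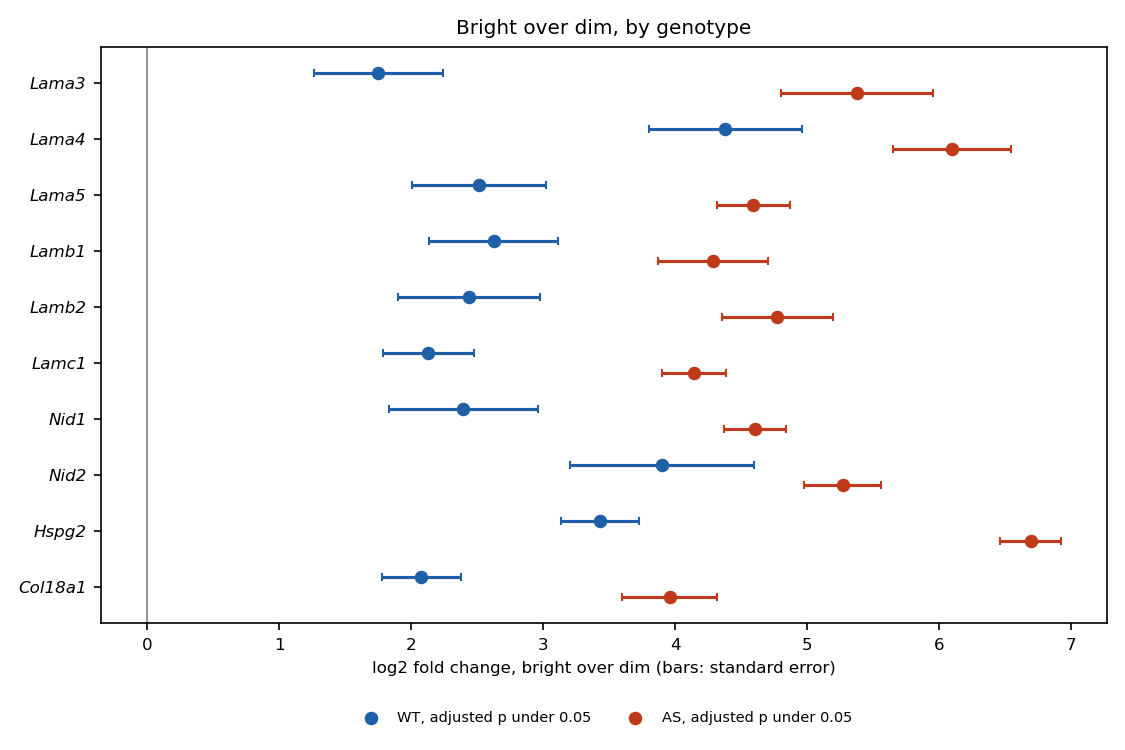
Log2 fold change of bright over dim GEC for each gene in WT and AS mice, with the standard error as bars and filled points for adjusted p under 0.05. All 20 points are filled and above 0, and the AS point lies to the right of the WT point for each gene.

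Other cell markers moved with reporter brightness. The 14 endothelial markers were all higher in bright GEC (median change 3.70 on the log2 scale in WT, 6.29 in AS), and the mesangial and mural markers were higher for 7 of 12 tested in WT and 12 of 12 in AS (medians 2.11 and 3.56). The 11 leukocyte markers tested were all lower, with medians of -8.03 in WT and -7.25 in AS. Of the 17 podocyte markers, 8 were lower and 2 higher in WT (median -1.12), and 3 were lower and 8 higher in AS (median 0.77). The part of these markers in the changes of the 10 genes was not tested. With the mean podocyte marker level as a covariate, 2 of the 10 genes (Hspg2 and Col18a1) and 457 of all genes passed in WT, against 3601 of all without it, and 10 of the 10 and 4873 of all genes passed in AS, against 7743. The 8 genes that lost their call in WT had estimates of 4.43 (Nid2), 4.36 (Lamb2), 3.45 (Lama4), 2.67 (Lamc1), 2.19 (Lama5), 2.16 (Nid1), 1.94 (Lamb1) and 0.47 (Lama3) in that fit. With the mouse as a replicate block 10 of the 10 passed in each genotype, and 4442 of all genes in WT and 7756 in AS.

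Ratios of related chains within a library do not depend on its scaling. They were taken as log2 of the ratio of counts and tested by a two-sided exact permutation test of 3 against 3, whose smallest p is 0.1, with Benjamini-Hochberg adjustment over 20 tests (smallest adjusted p = 0.222 by this exact test). No ratio could therefore pass, and the separations are given as descriptions. Col18a1 to Hspg2 was -0.61 ± 0.24 (SD, n = 3) in AS-bright and 0.49 ± 0.55 in WT-bright GEC, without overlap. It was 1.84 ± 0.17 in WT-dim and 2.02 ± 0.67 in AS-dim GEC, so that collagen XVIII counts exceeded those of perlecan in dim libraries of both genotypes.

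Hspg2 to Lamc1 was higher in bright than in dim GEC without overlap, by 1.18 in WT and by 2.56 in AS on the log2 scale, and without WT-dim replicate 3 the WT difference was 0.72. Lama5 to Lama4 was lower in bright GEC without overlap, by -2.11 in WT and by -2.002 in AS. The AS value rested on AS-dim replicate 1, with a log2 ratio of 3.93 from 4 counts of Lama4, against 0.21 and -0.21 in the other AS-dim libraries, and without it the difference was -0.69. Nid2 to Nid1 was higher in AS-dim than in WT-dim GEC by 1.47 without overlap, and it was higher in bright than in dim GEC of WT mice by 1.75. Lamb2 to Lamb1 overlapped in all 4 comparisons, with differences of -0.77 to 0.55.

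**Figure D4:**
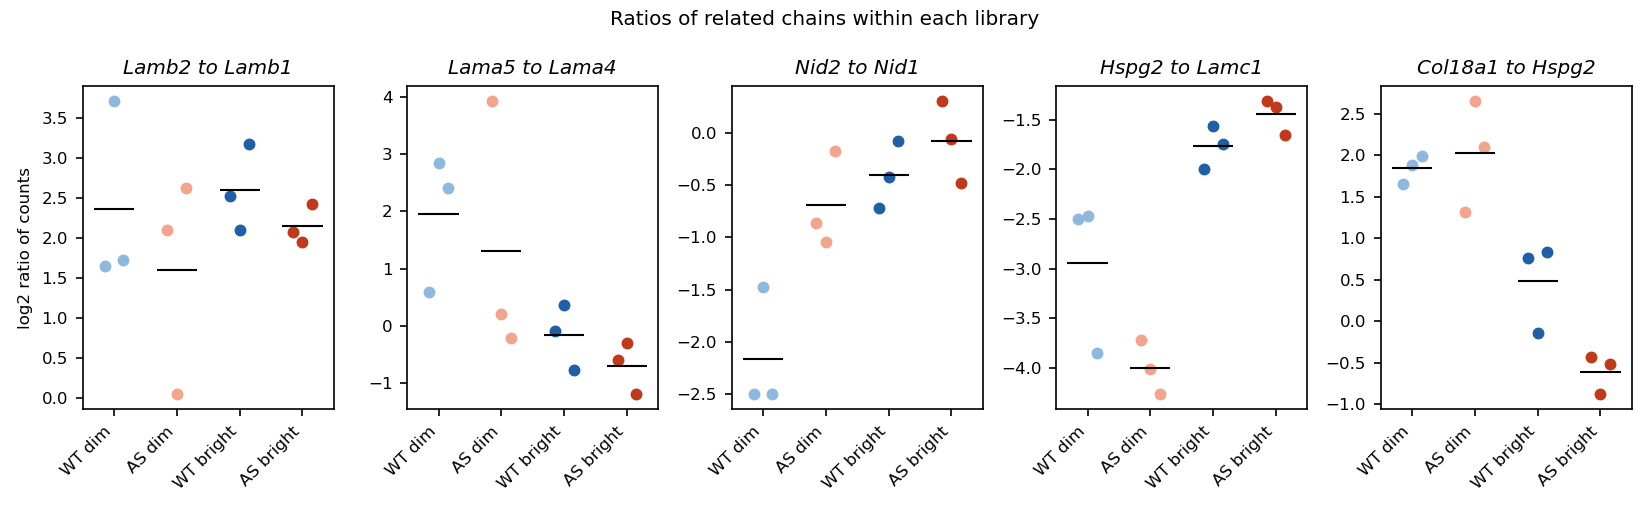
Log2 ratio of counts of 5 pairs of genes in each library, with a bar at the group mean. Col18a1 to Hspg2 is lowest in AS bright, with a mean of -0.61, and Lama5 to Lama4 is lower in bright than in dim libraries of the same genotype.

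Per length, Lamb2 made up 90.3% to 95.1% of the 2 beta chains in WT-bright and 89.3% to 92.1% in AS-bright GEC with the deposited lengths, and 81.4% to 90.2% and 79.8% to 84.6% with the longest coding transcripts. Lamb2 was thus the more abundant beta chain in bright GEC of either genotype. Among the 3 alpha chains, Lama3 held 18.5% to 21.3% in WT-bright and 8.15% to 11.8% in AS-bright GEC with the deposited lengths, and 15.9% to 16.9% and 5.52% to 9.19% with the transcript lengths. The bright genotypes did not overlap in the Lama3 share under either length. Lama4 held 29.0% to 43.0% in WT-bright and 40.9% to 56.8% in AS-bright GEC with the deposited lengths, which overlapped, and 49.9% to 64.0% and 63.3% to 76.7% with the transcript lengths. Lama4 therefore led the alpha chains in each bright library under the transcript lengths, while under the deposited lengths Lama5 led in some. Lamc1 exceeded the sum of the 3 alpha chains in each library, by 4.33 to 7.51 times in bright GEC with the deposited lengths. The alpha chain shares of dim GEC rested on 70 to 355 counts and spread widely, from 35.2% to 96.0% for Lama5.

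**Figure D5:**
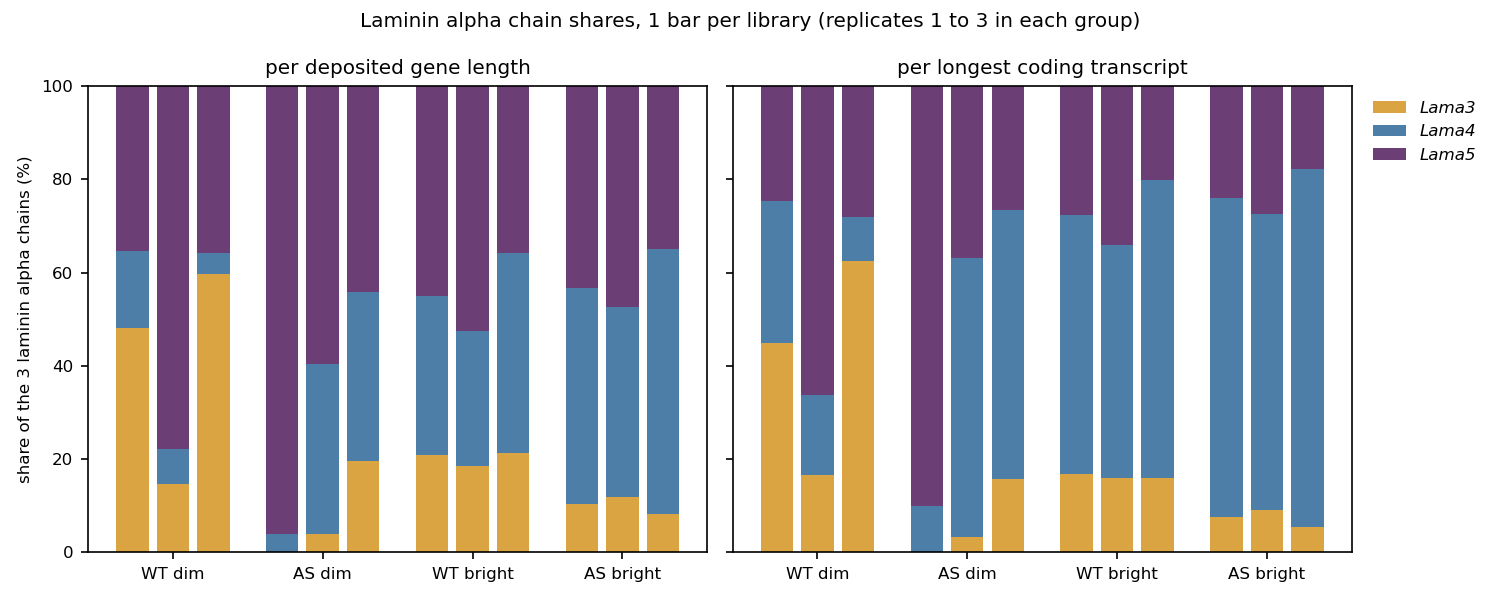
Share of Lama3, Lama4 and Lama5 in the summed counts per length of the 3 alpha chains, with 1 bar per library, using the deposited gene lengths (left) and the longest coding transcripts (right). The Lama3 share is 8.15% to 11.8% in AS bright and 18.5% to 21.3% in WT bright with the deposited lengths.

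Further laminin chains had few counts. Lama1 was in neither table, and Lama2 (1 to 21 counts) and Lamc3 (0 to 11 counts) were listed in the bright table only. Lamb3, the beta chain of laminin-332, was listed in the dim table only, with 32 to 116 counts.

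Of 26 other basement membrane genes, 21 were tested in bright GEC of AS over WT and 2 were higher, Col4a2 (1.59, SE 0.22, adjusted p = 0.0291) and Col4a1 (1.46, SE 0.22, adjusted p = 0.0345) by edgeR's quasi-likelihood test, the widespread collagen IV chains. In dim GEC 10 of 18 tested were lower and 0 higher, Col4a5 and Vwa1 (-4.44, SE 0.81, adjusted p = 0.0198 by edgeR's test) the most. Over all genes tested, 0.188% were higher in AS-bright and 6.41% lower in AS-dim GEC. In bright over dim GEC 10 of 19 tested were higher and 4 lower in WT, and 14 of 18 were higher and 1 lower in AS. The shares of all genes there were 13.8% higher and 11.5% lower in WT, and 28.6% and 26.5% in AS. The highest in both genotypes was Col15a1, collagen XV, the relative of Col18a1, with 4.08 in WT (SE 0.54, adjusted p = 0.000600) and 6.47 in AS (SE 0.34, adjusted p = 1.86e-07) by edgeR's test.

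Of 9 laminin and perlecan receptors, 0 of 8 tested passed in bright GEC of AS over WT, and 3 of 7 were lower in dim GEC: Dag1 (-1.47), Itga3 (-1.42) and Itga6 (-1.22). Dag1 encodes dystroglycan, and Itga3 and Itga6 encode laminin-binding integrin chains. In bright over dim GEC 6 of 8 were higher and 1 lower in WT, and 7 of 9 were higher and 2 lower in AS. Bcam, a receptor of laminin alpha5, was among the highest, with 2.53 in WT and 4.33 in AS. Of 17 genes of heparan sulfate chain synthesis and editing, the chains that perlecan and collagen XVIII carry, 0 passed in bright GEC of AS over WT and 1, the heparanase gene Hpse, was higher in AS-dim GEC (1.25, SE 0.21, adjusted p = 0.0207 by edgeR's quasi-likelihood test). In bright over dim GEC 1 was higher and 3 lower in WT, and 7 were higher and 6 lower in AS. For the receptor and heparan sulfate counts, the shares of all genes in bright over dim were 13.8% higher and 11.5% lower in WT. They were 28.6% and 26.5% in AS. In dim GEC of AS over WT 6.41% of all genes were lower and 2.21% higher.

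The genes whose pattern over the 12 libraries was most like that of each of the 10 were found by the root mean square difference of centred log2 CPM, among the 15084 genes of the joint fit outside the lists used here. For Hspg2 this was Igfbp5 (difference 0.285, Pearson r 0.994), for Col18a1 Ryk (0.290, r 0.988) and for Lamc1 Fmnl3 (0.293, r 0.987). For Nid1 it was Bmp1 (0.366, r 0.991), for Lama5 Gtf2ird1 (0.394, r 0.982), for Lama3 Bend7 (0.445, r 0.985) and for Lamb2 Dok4 (0.454, r 0.983). For Lamb1 it was Adcy6 (0.469, r 0.969), for Nid2 Btnl9 (0.540, r 0.979) and for Lama4 Astn1 (0.568, r 0.982). Among the 10 genes themselves, Lama5 and Nid1 were the closest pair (0.352). These correlations describe 12 libraries that share the same 4 groups, and differences between groups and within them were not separated.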

How the data were processed

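RNA of dim and bright tdT GEC of 3 WT and 3 AS mice was sequenced after poly-A selection (KAPA stranded kit). The authors aligned the reads with STAR 2.6.0c to GRCm38.p5 with Gencode M16 and deposited raw counts per gene, 1 table for each subpopulation, with gene lengths as another deposited column. The deposited RPKM were computed by the authors from those counts and lengths. Their own comparison columns (fold changes, p-values) were not used. The counted strand is not given in the sources used here.

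Counts were tested with edgeR 4.0.16 (R 4.3.3): rows that name no gene (spike-ins, 0.0286% to 0.282% of counts) left out, filterByExpr, TMM, the version 4 quasi-likelihood fit, Benjamini-Hochberg adjustment over all genes tested and a threshold of 0.05. AS over WT used the 6 libraries of a table, bright over dim the genes of both tables, and the difference of effects an interaction term over 12 libraries. SE is the absolute log2 fold change divided by the square root of the F statistic. Ratios used a pseudocount of 0.5 counts. All 10 genes passed the filter in each fit. The fits were tested on simulated data. The number of counts limits the precision, and replicates differed beyond sampling noise.

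Dim and bright libraries with the same number came from the same mouse, per the labels; their deviations from group means correlated with a mean r of 0.197 in WT and 0.213 in AS. WT and AS numbers mark different mice.

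The 10 genes and all gene lists were chosen with earlier results of these data known. Genes named beside the 10 are Col4a5, at most the 2 highest and 2 lowest past the threshold per list and comparison, the nearest gene in pattern, and marker lists beside a result. Itga6 and the laminin chains absent from a table were named after their values were seen. One listed gene is not reported here. Alternatives were RLE normalization, library sizes alone or from the whole table, DESeq2 1.42.0, the likelihood ratio test, no filter, a replicate block, marker covariates, 12 libraries in one fit, each library left out, a pseudocount of 5, deposited RPKM, and, added after seeing the data, edgeR's version 3 fit, transcript lengths and the marker covariates for the difference of effects.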

Additional observations from a re-analysis of the deposited data

Results flagged for a closer look

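The AS over WT log2 fold change differed between bright and dim GEC, by the interaction term of edgeR's quasi-likelihood fit over 12 libraries, for 4 of the 10 genes. The difference, bright minus dim, was 3.32 for Hspg2, 3.68 for Lama3, 2.06 for Lamc1 and 1.94 for Col18a1. Dim and bright libraries came from the same mice, and with the mouse as a replicate block Lama3 did not pass (edgeR adjusted p = 0.0696) and Lama5 did (edgeR adjusted p = 0.0292). With the podocyte marker level as a covariate 0 of the 10 and 11 of all genes passed in edgeR's test. For Hspg2 and Lamc1 the AS libraries lay above all WT libraries in bright GEC and below all of them in dim GEC. For Lama3 and Col18a1 the bright genotypes overlapped, and the difference came with lower levels in AS-dim GEC. Groups of 3 were too small for a search for single outlying libraries.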

How the results depend on the processing

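Each of the 5 comparisons was refitted under alternatives, changing 1 choice at a time, except that DESeq2 changes normalization, dispersion and test together. In bright over dim GEC of AS the members' calls did not change under any of them. The causes of the changes below were not tested. A left-out library leaves fewer samples and a covariate fewer degrees of freedom, but calls rose as well as fell with a covariate. Summed proximal tubule markers did not overlap between WT-dim (1738 to 7948 CPM) and AS-dim GEC (17.6 to 485 CPM). That covariate and genotype are therefore hard to tell apart in dim GEC.

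AS over WT in bright GEC called 65 genes and 0 of the 10. DESeq2 called 1117 genes and 6 of the 10, the likelihood ratio test 827 and 4, every gene with a count 39 genes, all 12 libraries in one fit 139, the podocyte covariate 298, the proximal tubule covariate 0 and edgeR's version 3 fit 0. Leaving out a library gave 0 to 281 genes and 0 to 1 of the 10, and Col18a1 -0.42 to 0.0070, with its sign turned without WT-bright replicate 3.

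AS over WT in dim GEC called 1262 genes and 4 of the 10. DESeq2 called 2213 genes, the likelihood ratio test 1946 and all 12 libraries in one fit 2105, edgeR's version 3 fit 582 with 2 of the 10, the podocyte covariate 34 with 0 and the proximal tubule covariate 0 with 0. Leaving out a library gave 0 to 1823 genes and 0 to 6 of the 10, the lowest without AS-dim replicate 1 and the highest without WT-dim replicate 3. Genes with estimates that missed the threshold changed sign. Nid2 had 0.041 with library sizes alone, 0.015 with 12 libraries in one fit, 1.67 with the podocyte covariate and -0.53 to 1.17 when a library was left out. Lama4 had 0.75 with the proximal tubule covariate and -1.19 to 0.41 when a library was left out. Lamb1 had 0.82 with the podocyte and 0.080 with the proximal tubule covariate, and Lamb2 had 2.34 with the podocyte covariate.

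With the podocyte covariate, bright over dim called 457 genes and 2 of the 10 in WT, and 4873 genes in AS. The difference of effects called 569 genes and 4 of the 10, against 1186 and 7 with DESeq2, 1114 and 7 with the likelihood ratio test, 486 and 2 with library sizes alone, 449 and 2 with edgeR's version 3 fit, and 11 and 0 with the podocyte covariate, in which Lamb2 had -0.19. Leaving out a library gave 252 to 856 genes, lowest without AS-bright replicate 1, and 2 to 6 of the 10, highest without WT-dim replicate 3. Leaving out a library in bright over dim of WT gave 2533 to 3436 genes and 8 to 10 of the 10, the fewest of the 10 without WT-bright replicate 2.

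The replicate block by mouse, from the shared number in the labels, gave 10 of the 10 in bright over dim of WT and AS, and 877 genes and 4 of the 10 for the difference of effects, with Lama5 in place of Lama3. WT and AS share only a number. With that number as a replicate block, bright AS over WT called 16 genes, dim AS over WT 494 genes and 2 of the 10, and Nid2 in dim had 0.24. The mouse block changed no other call of the 10 genes in bright over dim.

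The sign of these log2 ratio differences turned when a library was left out: Lamb2 to Lamb1 for AS over WT in dim (-1.29 to 0.0032), bright over dim in WT (-0.12 to 0.91) and in AS (-0.22 to 1.07), and in dim AS over WT Lama5 to Lama4 (-1.95 to 0.12) and Col18a1 to Hspg2 (-0.14 to 0.53). The pseudocount of 5 and the deposited RPKM turned none. Depth limited Lama3 and Lama4 in dim GEC, with 0 to 179 and 4 to 70 counts.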
